A study of Mus musculus with 12 samples.

Results

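The collagen genes of mouse embryonic stem cells were followed as the cells differentiated, in a control line and in a line depleted of cathepsin L (Ctsl). Members were all genes of the count table whose symbol is Col, a number, the letter a and a number, which gave 44 of 24495 genes. They were grouped by the kind of assembly their chains form: 11 fibrillar chains, 6 chains of type IV collagen, called basement membrane chains here, and 27 chains of other types.

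Collagens are extracellular proteins in which chains wind into a triple helix, either as copies of the same chain or as a fixed combination of different ones. Fibrillar collagens pack into the ropes that carry load in connective tissue, type IV collagen forms the network of basement membranes, and the other types link fibrils, anchor membranes, sit in the cell membrane or carry long sugar chains. In the early mouse embryo type IV collagen is laid down by the extraembryonic endoderm and underlies the epiblast, and fibrillar collagens appear as mesenchyme forms.

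The study sequenced poly(A) RNA of CCE-Nanog-GFP cells, an embryonic stem cell line with a fluorescent reporter of Nanog that was sorted for the reporter and kept on gelatin with LIF. The control line, shSC, carries a scrambled shRNA and is labelled WT in its genotype field and scr in its title, and the depleted line, shCTSL, carries an shRNA against Ctsl and is labelled CTSL KD. Both shRNAs were delivered by lentivirus and selected with puromycin, and the series holds a single line of each kind. Cells were taken as stem cells (Day 0) and after 2 and 4 days (Day 2, Day 4) as embryoid bodies without LIF and with all-trans retinoic acid, with 2 libraries in each of the 6 groups and 11171111 to 27155553 counted reads per library. The labels call the libraries replicates and say no more, so the spread between libraries is all that the p-values measure.

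Values for each library are given as normalized CPM, counts scaled by library total and TMM factor, with replicate 1 before replicate 2. Ctsl measured 137 and 147 at Day 0, 369 and 391 at Day 2, and 484 and 423 at Day 4 in shSC, against 39.2 and 37.5, 211 and 155, and 257 and 253 in shCTSL. The shCTSL libraries lay below the shSC libraries on each day, as their labels say, while both lines rose after Day 0. Summed over Nanog, Pou5f1, Sox2, Klf4, Esrrb and Zfp42, pluripotency transcripts came to 5015 and 5156 CPM at Day 0, 781 and 779 at Day 2, and 328 and 286 at Day 4 in shSC. In shCTSL the sums were 4762 and 4715, 844 and 725, and 252 and 297 CPM. The Day 0 libraries carry the markers of the labelled stem cells, and the sums of later libraries are far lower in both lines. Pou5f1 was the most abundant of them in each library except at Day 4 in shSC, where it was Sox2, and none of the 6 was at 0.

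Over genes in general, the shCTSL Day 2 pair stands apart from the other pairs. The squared differences between its libraries came to 134 times what counting alone gives, against 2.73 to 10.2 in the other groups. That measure is chi-square per degree of freedom over genes with at least 20 counts in the pair. The log2 ratios of the pair had an SD of 0.604 over all genes tested, against 0.178 to 0.269 in the other groups. Over the collagen genes its SD was 0.385, which was not the largest. There the SD ran from 0.167 in shSC Day 2 to 0.515 in shSC Day 4. The difference between the shCTSL Day 2 libraries followed transcript length. Replicate 1 was above replicate 2 by a median log2 of 0.485 in the shortest genes, up to 2249.5 exonic bases, and the median was -0.471 in the longest, from 5510 bases. Of the 40 collagen genes tested, 32 are among these longest genes, and over all 40 the median difference was -0.0781. Collagen calls that depend on a library of this pair are given with the values found without it.

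Changes were tested with edgeR's quasi-likelihood method in 1 fit of all 12 libraries, with p-values adjusted by the Benjamini-Hochberg method over the 15532 genes that passed a filter on low counts. A call required an adjusted p below 0.05 and a change of 1.5-fold or more. Of the 44 collagen genes 40 passed the filter. The others were Col6a3, Col10a1, Col19a1 and Col28a1, and none of these exceeded 0.84 CPM in a library.

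Which collagen genes move as cells leave the stem cell state was read from the days within each line. In shSC, 31 of the 44 genes were called higher and 2 lower at Day 2 than at Day 0, beside 29.3% (4549) and 25.3% (3928) of all genes tested. In shCTSL the counts were 30 higher and 2 lower, beside 30.9% (4801) and 24.6% (3826). Between Day 2 and Day 4, 16 were called higher and 10 lower in shSC, beside 11.4% (1769) and 12.4% (1920) of all genes, and 15 higher and 12 lower in shCTSL, beside 11% (1708) and 12.4% (1922). Over the whole course, Day 4 against Day 0, the shSC counts were 29 higher and 4 lower, beside 32.1% (4982) and 28.7% (4453), and the shCTSL counts were 29 higher and 3 lower, beside 32.3% (5011) and 27.6% (4285). The collagen genes were thus called higher more often than genes in general, and lower less often, in each comparison with Day 0. In a fit without the filter, the median log2 fold change over the 44 genes from Day 0 to Day 4 was 2.65 in shSC and 2.33 in shCTSL, against 0.00 and 0.20 over the 22689 genes fitted. For Day 0 to Day 2 these medians were 2.15 and 2.25 against 0.00 in both lines, and from Day 2 to Day 4 they were 0.48 and 0.52 against 0.00. Without replicate 1 of shCTSL Day 2, 29 genes were called higher and 2 lower from Day 0 to Day 2 in that line, beside 31.6% and 24.9% of all genes in that fit, and without replicate 2 the counts were the same, beside 31.2% and 26.7%. The shCTSL counts from Day 2 to Day 4 were 13 higher and 11 lower without replicate 1, beside 11.6% and 13.7%, and 17 and 12 without replicate 2, beside 20.5% and 18.8%. In bulk RNA, a change in the number of cells of a type and a change in RNA per cell cannot be told apart.

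**Figure D1:**
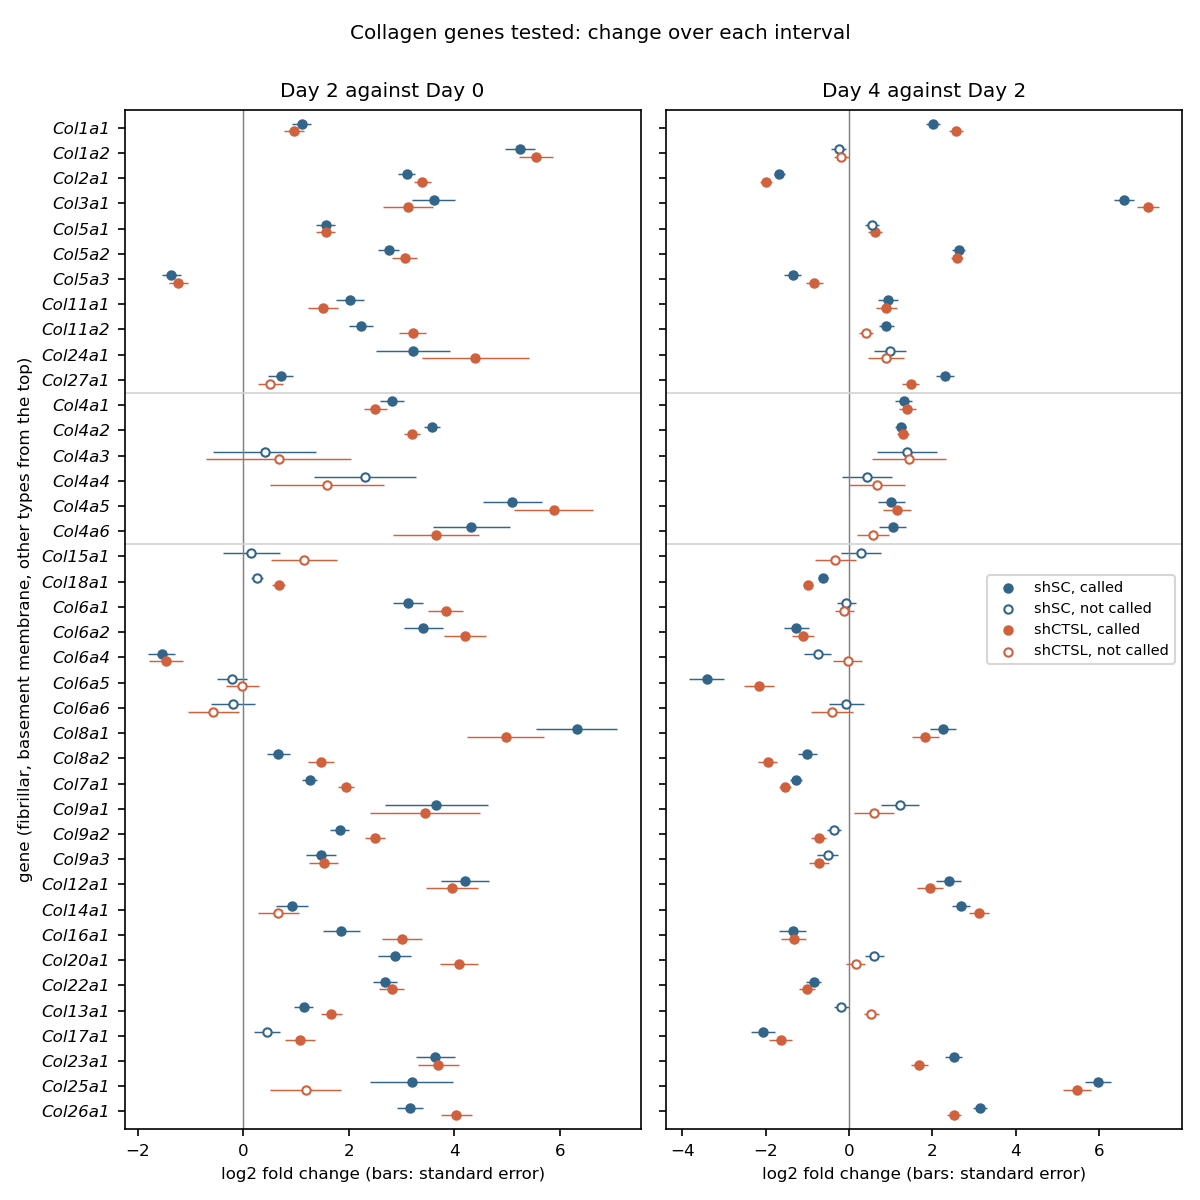
Log2 fold change of the 40 collagen genes tested, from Day 0 to Day 2 (left) and from Day 2 to Day 4 (right), with 1 point per line, standard errors from the fit as bars, and filled points for called genes. Most genes lie right of 0 in the first interval, while in the second they fall on both sides, from Col3a1 at 6.60 and 7.17 to Col6a5 at -3.41 (-2.67 without shSC Day 4 replicate 1, -4.25 without replicate 2) and -2.15.

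Calls were also counted by class, without a test between classes, and the shares of all genes given above stand beside them. From Day 0 to Day 4, when these were 32.1% higher and 28.7% lower in shSC and 32.3% and 27.6% in shCTSL, 10 of the 11 fibrillar genes were called higher and 1 lower in both lines. Of the 6 basement membrane genes, 5 were called higher in shSC and 4 in shCTSL, and none lower. Of the 27 genes of other types, which include the 4 that were not tested, 14 were called higher and 3 lower in shSC, and 15 and 2 in shCTSL. In the second interval, Day 2 to Day 4, the split was 6 higher and 2 lower for fibrillar genes in both lines, 4 and 3 higher with none lower for basement membrane genes in shSC and shCTSL, and 6 higher with 8 lower in shSC and 10 lower in shCTSL for the other types. The fifth basement membrane call in shSC was Col4a4, whose log2 change of 2.74 was 0.41 without shSC Day 4 replicate 1, 3.40 without shSC Day 0 replicate 1 and 2.21 without shSC Day 0 replicate 2, and was not called in these fits. Without shSC Day 4 replicate 2 it was called at 3.40. In shCTSL it was not called at 2.25, but was without any 1 of the shSC Day 4 or shCTSL Day 2 libraries (2.24 to 2.26). Col4a3, not called in shSC at 1.80, was called without shSC Day 4 replicate 2 (2.46) or replicate 1 or 2 of shCTSL Day 2 (1.85 and 1.82), and in shCTSL, at 2.12, without either shSC Day 4 library (2.12).

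Among the fibrillar chains, Col3a1 had the highest level per length in any group, the measure by which 4 genes of each class were taken up in detail. Col3a1 encodes the chain of type III collagen, a homotrimer of soft and early connective tissue. It measured 0.457 and 0.124 CPM at Day 0, 3.52 and 3.33 at Day 2, and 336 and 330 at Day 4 in shSC. In shCTSL it measured 0.0746 and 0.527, 2.4 and 2.3, and 351 and 328 CPM. The libraries of the 3 days did not overlap, and the Day 4 libraries of both lines were far above the rest. The group mean at Day 4 was 333 ± 3.96 CPM (SD, n = 2) in shSC and 339 ± 16 in shCTSL. Between Day 2 and Day 4 the edgeR log2 fold change was 6.60 ± 0.25 (standard error, adjusted p 3.91e-07) in shSC and 7.17 ± 0.26 (adjusted p 3.72e-07) in shCTSL. The change from Day 0 to Day 4 was 10.21 ± 0.34 in shSC and 10.29 ± 0.35 in shCTSL, but these rest on 8 and 6 counts at Day 0. Without shSC Day 0 replicate 1 the first became 11.31 and without replicate 2 it became 9.51, while the second became 9.31 and 12.03 without replicate 1 and replicate 2 of shCTSL Day 0.

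Col5a2 lies next to Col3a1 on chromosome 1 and encodes a chain of type V collagen, which sits inside larger fibrils and sets their width. In mm9, Col3a1 spans chr1:45368383-45406551 on the plus strand and Col5a2 spans chr1:45431166-45560127 on the minus strand, with 24614 bases between them. Col5a2 measured 0.839 and 1.05 CPM at Day 0, 6.8 and 6.17 at Day 2, and 41.2 and 39.3 at Day 4 in shSC, and 0.522 and 0.843, 5.29 and 5.75, and 34.8 and 31.7 CPM in shCTSL. It rose over both intervals with no overlap between days, by 2.76 ± 0.20 and then 2.63 ± 0.15 on the log2 scale in shSC, and by 3.06 ± 0.24 and then 2.59 ± 0.15 in shCTSL. The neighbours therefore did not rise in step. Per exonic length the ratio of Col3a1 to Col5a2 was 0.134 to 0.714 in the Day 0 libraries, where Col3a1 has 1 to 6 counts, 0.457 to 0.616 at Day 2, and 9.32 to 11.8 at Day 4.

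Col5a1, the partner of Col5a2 in the common form of type V, was already present in stem cells. It measured 19.9 and 20.2 CPM at Day 0, 62.4 and 55.8 at Day 2, and 85.1 and 88.1 at Day 4 in shSC, and 18.8 and 16.3, 41.2 and 62.5, and 83.5 and 75.8 in shCTSL. The days did not overlap in either line, and the shCTSL Day 2 libraries were farther apart than any other pair. From Day 0 to Day 4 the log2 change was 2.11 ± 0.18 (adjusted p 3.42e-06) in shSC and 2.18 ± 0.19 (adjusted p 3.22e-06) in shCTSL, with edgeR. After Day 2 it was 0.55 and not called in shSC, and 0.62 and called in shCTSL, where the call was lost without shCTSL Day 2 replicate 1 (0.33), Day 4 replicate 1 (0.54) and Day 4 replicate 2 (0.68). Genes on the other strand share 212 of its exonic bases, and the notes do not say if reads were counted by strand.

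Col1a1 encodes the major chain of type I collagen, the main fibril of bone, skin and tendon. Its values were 4.65 and 3.66 CPM at Day 0, 9.26 and 8.58 at Day 2, and 33.5 and 38.8 at Day 4 in shSC, and 3.73 and 2.74, 6.03 and 6.68, and 37.5 and 37.9 in shCTSL. The days were separate in both lines, with the larger step after Day 2. That step was 2.02 ± 0.16 on the log2 scale (adjusted p 1.61e-05) in shSC and 2.56 ± 0.17 (adjusted p 5.71e-06) in shCTSL, against 1.11 ± 0.18 (adjusted p 0.000332) and 0.96 ± 0.19 (adjusted p 0.00158) from Day 0 to Day 2 with edgeR. Of its exonic bases, 109 are shared with Gm17329 on the other strand.

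Col1a2, the other chain of type I collagen, was chosen for detail after its values were seen, because its course differs from that of Col1a1. It measured 0.457 and 0.248 CPM at Day 0, 13.1 and 13.4 at Day 2, and 10.7 and 11.7 at Day 4 in shSC, and 0.373 and 0.105, 11.3 and 13.7, and 11.3 and 10.9 in shCTSL. Its rise was complete by Day 2, and the Day 2 and Day 4 libraries met at 11.3 CPM in shCTSL while in shSC they stayed apart. The log2 change from Day 0 to Day 2 was 5.25 ± 0.29 (adjusted p 2.77e-07) in shSC and 5.55 ± 0.32 (adjusted p 3.91e-07) in shCTSL, which became 6.81 without shCTSL Day 0 replicate 1. From Day 2 to Day 4 it was -0.24 in shSC and -0.18 in shCTSL (adjusted p 0.354 and 0.489), and neither was called. Per exonic length, Col1a1 was 0.902 to 1.31 times Col1a2 in the Day 2 libraries and 5.78 to 6.46 times in the Day 4 libraries. The Day 0 ratios, 18.5 to 48.1, rest on 1 to 6 Col1a2 counts a library. Lengths join all annotated exons of a gene, so the size of such a ratio depends on the annotation and its change between days does not.

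Col2a1, the chain of type II collagen of cartilage and of the early notochord, peaked at Day 2. It measured 8.92 and 8.98 CPM at Day 0, 82.2 and 71.8 at Day 2, and 21.4 and 27.2 at Day 4 in shSC, and 8.73 and 7.69, 80.6 and 92, and 22 and 21.5 in shCTSL. The Day 2 libraries were above the others in both lines and the Day 4 libraries stayed above those of Day 0. It rose by 3.10 ± 0.16 on the log2 scale (adjusted p 1.5e-07) and then changed by -1.67 ± 0.14 (adjusted p 2.55e-05) in shSC, and the steps were 3.39 ± 0.16 (adjusted p 1.09e-07) and -1.99 ± 0.14 (adjusted p 1.14e-05) in shCTSL. Col5a3, a minor chain of type V, is named after its values were seen as the fibrillar gene that was called lower from Day 0 to Day 4. It measured 10.9 and 10.3, 3.65 and 4.55, and 1.81 and 1.32 CPM over the days in shSC, and 9.77 and 10.5, 4.06 and 4.51, and 2.49 and 2.36 in shCTSL. Each day lay below the one before in both lines, and the log2 change from Day 0 to Day 4 was -2.72 ± 0.20 in shSC and -2.06 ± 0.19 in shCTSL. Of the remaining fibrillar genes, Col11a1, Col11a2 and Col27a1 changed by 2.96, 3.12 and 3.01 in shSC from Day 0 to Day 4 on the log2 scale, and by 2.42, 3.62 and 1.99 in shCTSL. Col24a1 was at 0 to 0.305 CPM in the Day 0 libraries and at 1.87 to 2.74 CPM at Day 4, and in shCTSL the 76 Day 4 counts against 1 count at Day 0 give a ratio of 44.9 (95% counting interval 7.81 to 1795). Counting intervals cover counting error alone, since reads without molecular identifiers are not independent molecules.

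Col4a1 and Col4a2 encode the chains of the type IV collagen found in nearly every basement membrane, in which Col4a1 contributes more copies than Col4a2. They are read head to head: in mm9, Col4a1 spans chr8:11198423-11312826 on the minus strand and Col4a2 chr8:11312805-11449287 on the plus strand, so that they overlap by 22 bases. Col4a1 measured 52 and 43.8 CPM at Day 0, 340 and 337 at Day 2, and 865 and 811 at Day 4 in shSC, and 56.2 and 61.5, 242 and 422, and 910 and 842 in shCTSL. Col4a2 measured 18.2 and 15.7, 204 and 198, and 491 and 461 CPM in shSC, and 24 and 23.3, 185 and 249, and 548 and 523 in shCTSL. Both genes rose at each step in both lines without overlap between days, and the shCTSL Day 2 libraries of Col4a1 stood far apart. With edgeR, the log2 change of Col4a1 from Day 0 to Day 4 was 4.13 ± 0.24 (adjusted p 2.05e-07) in shSC and 3.90 ± 0.24 (adjusted p 3.03e-07) in shCTSL. That of Col4a2 was 4.81 ± 0.16 (adjusted p 9.74e-09) and 4.50 ± 0.16 (adjusted p 1.34e-08). Most of this came by Day 2, when Col4a1 had risen by 2.82 ± 0.23 and 2.50 ± 0.22 and Col4a2 by 3.57 ± 0.15 and 3.20 ± 0.15. The step from Day 2 to Day 4 was 1.31 ± 0.21 and 1.40 ± 0.21 for Col4a1 and 1.24 ± 0.14 and 1.30 ± 0.14 for Col4a2. In shCTSL the first step of Col4a1 was 2.89 without Day 2 replicate 1 and 2.04 without replicate 2, and its second step was 1.03 and 1.86, all of them called, but a fit of only the libraries compared did not call the second step. Since Col4a2 rose more in the first interval, the ratio of Col4a1 to Col4a2 per exonic length went from 2.27 to 2.77 in the Day 0 libraries to 1.27 to 1.71 in the later ones.

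The stretch from start to start of this pair is shown because it is the point from which both genes are read. In the RefSeq entries of GRCm38.p6 it is chr8:11312805-11312826, written here on the plus strand, in lower case with no part marked.
Col4a1 and Col4a2, between the starts: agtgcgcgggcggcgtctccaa

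The other pairs of type IV chains form the specialised networks of kidney, eye, muscle and smooth muscle membranes. Col4a5 measured 0.0762 and 0.372 CPM at Day 0, 7.9 and 8.93 at Day 2, and 16.4 and 17.8 at Day 4 in shSC, and 0.149 and 0, 3.45 and 7.45, and 13.9 and 10.7 in shCTSL. Col4a6, read away from it 1308 bases farther on the X chromosome, measured 0.0762 and 0, 0.83 and 0.788, and 1.55 and 1.87 CPM in shSC, and 0.0746 and 0, 0.492 and 0.724, and 0.812 and 1.03 in shCTSL. Both were at or near 0 in stem cells, and the libraries of each later day lay higher with no overlap between days. The second step of Col4a6 was not called in shCTSL, and in shSC (1.05) its call was lost without any 1 of 6 libraries (0.93 to 1.20). For Col4a5 in shCTSL the Day 4 counts, 475 against 2 at Day 0, give a ratio of 140 after scaling (95% counting interval 38.6 to 1161), and in shSC the log2 change was 6.12 ± 0.54 (adjusted p 3.55e-06), or 5.49 and 7.70 without replicate 1 and replicate 2 of shSC Day 0. For Col4a6 the ratio was 49 (8.47 to 1965) from 62 counts against 1 in shSC, and 21.2 (3.58 to 862) from 36 against 1 in shCTSL. Col4a3 and Col4a4, read from either side of a gap of 71 bases on chromosome 1, never exceeded 1.9 and 1.15 CPM. The highest library of both was shSC Day 4 replicate 1, while shSC Day 4 replicate 2 had 0.277 CPM of Col4a3 and 0.139 of Col4a4.

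Col18a1 was the collagen gene with the highest level per exonic length at Day 0. It encodes a basement membrane collagen that carries heparan sulfate and holds endostatin at its end. It measured 862 and 874 CPM at Day 0, 1076 and 999 at Day 2, and 697 and 653 at Day 4 in shSC, and 695 and 713, 996 and 1247, and 571 and 555 in shCTSL. The Day 4 libraries were the lowest and the Day 2 libraries the highest in both lines, with no overlap between days. From Day 2 to Day 4 the edgeR log2 change was -0.99 ± 0.12 (adjusted p 0.000195) in shCTSL and -0.62 ± 0.12 (adjusted p 0.00274) in shSC, and the second call was lost without shSC Day 2 replicate 1 (-0.57) or shSC Day 4 replicate 2 (-0.58). From Day 0 to Day 2 the change was 0.26 and not called in shSC, and 0.67 ± 0.12 (adjusted p 0.00056) in shCTSL, where the call was lost without shCTSL Day 2 replicate 2 (0.50). Over the whole course it was -0.36 in shSC and -0.32 in shCTSL and was not called, although offsets for exonic length, an alternative chosen after seeing the data, gave -0.61 (adjusted p 2.49e-05) and a call in shSC. Col15a1, the related multiplexin, stayed at 0.211 to 1.18 CPM and had no call between days with all libraries, although its change from Day 0 to Day 4 in shSC, 0.45, became 1.19 and was called without shSC Day 4 replicate 1.

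The other 3 genes of the detailed set gained transcripts. Col9a2, a chain of the type IX collagen that coats cartilage fibrils, measured 9.38 and 10.4 CPM at Day 0, 36.9 and 33.4 at Day 2, and 32.1 and 22.6 at Day 4 in shSC, and 7.31 and 7.79, 45.2 and 39.6, and 23.3 and 27.7 in shCTSL. Its Day 0 libraries lay below the rest, and Day 2 lay above Day 4 in both lines. The log2 change from Day 0 to Day 4 was 1.47 ± 0.18 (adjusted p 4.99e-05) in shSC and 1.76 ± 0.19 (adjusted p 1.91e-05) in shCTSL. From Day 2 to Day 4 it was -0.36 and not called in shSC, or -0.64 and called without shSC Day 4 replicate 1, and -0.73 and called in shCTSL, or -0.61 and not called without shCTSL Day 4 replicate 1. Col26a1 encodes a secreted collagen first known from testis and ovary and measured 0.839 and 0.682, 7.5 and 6, and 53.3 and 66.9 CPM in shSC, and 0.522 and 0.316, 7.63 and 6.9, and 40.8 and 43 in shCTSL. It rose at both steps without overlap, by 6.30 ± 0.23 (adjusted p 1.38e-08) over the course in shSC and 6.57 ± 0.26 (adjusted p 2.57e-08) in shCTSL on the log2 scale with edgeR.

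Col25a1 encodes a membrane-spanning collagen that motor nerves need to reach muscle, and most of its rise came after Day 2. It measured 0.152 and 0 CPM at Day 0, 0.631 and 0.744 at Day 2, and 39.2 and 47.9 at Day 4 in shSC, and 0.373 and 0.105, 0.492 and 0.681, and 31.2 and 22.7 in shCTSL. The Day 4 libraries were far above all others in both lines, and Day 0 and Day 2 did not overlap. From Day 2 to Day 4 the edgeR log2 change was 5.98 ± 0.32 (adjusted p 1.9e-06) in shSC and 5.47 ± 0.33 (adjusted p 4.22e-06) in shCTSL. By Day 2 it was already called higher in shSC, where 36 counts against 2 at Day 0 give a ratio of 9.94 (95% counting interval 2.56 to 85.2), and it was not called in shCTSL, at 1.18. In shSC the 1577 Day 4 counts against 2 at Day 0 give a ratio of 623 (95% counting interval 172 to 5146). In shCTSL the log2 change from Day 0 to Day 4 was 6.66 ± 0.42, or 7.91 without shCTSL Day 0 replicate 1.

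**Figure D2:**
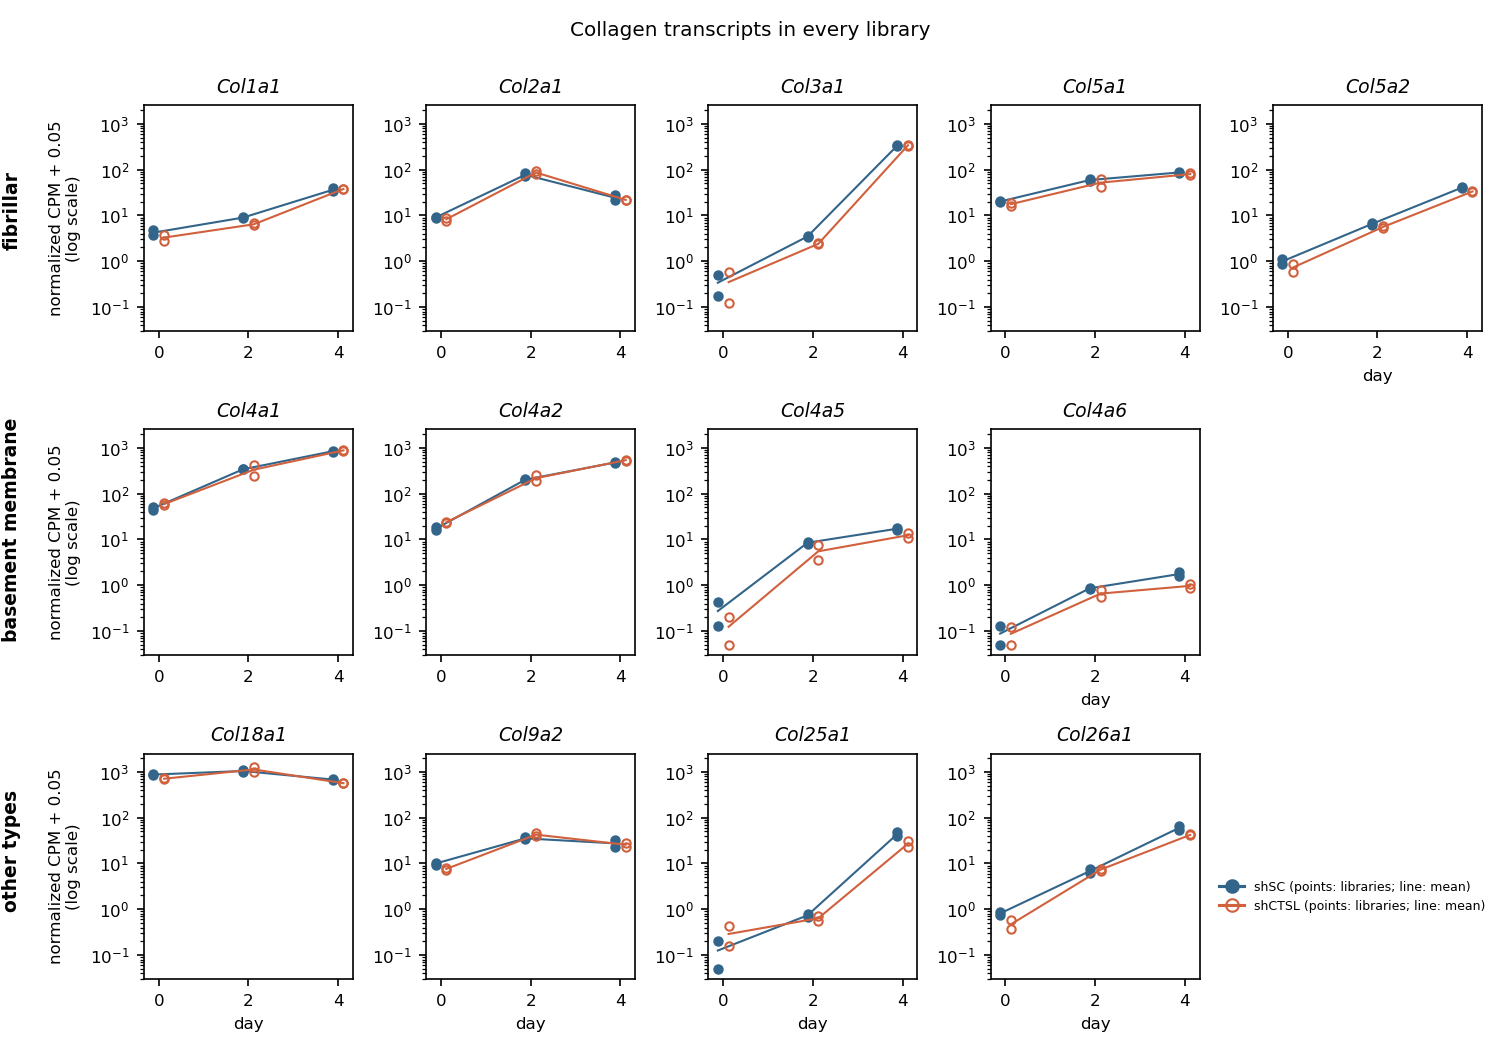
Normalized CPM plus 0.05, on a log scale, of 13 collagen genes at Day 0, Day 2 and Day 4, with filled points for shSC libraries, open points for shCTSL libraries and lines through the group means. Col3a1 and Col25a1 climb mostly after Day 2 (Col3a1 to 328 to 351 CPM at Day 4), Col2a1 peaks at Day 2 with 71.8 to 92 CPM, and Col18a1 stays between 555 and 1247 CPM.

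The rest of the other types showed several courses. Each call from Day 0 to Day 4 given here was also made without any single library. Col12a1 and Col14a1, which bind the surface of fibrils, changed by 6.59 and 3.62 on the log2 scale from Day 0 to Day 4 in shSC and by 5.91 and 3.79 in shCTSL. Col23a1, a membrane-spanning collagen, changed by 6.15 and 5.38, the second being 6.64 without shCTSL Day 0 replicate 1. Col8a1, a chain of a network under endothelium, had 609 counts at Day 4 against 1 at Day 0 in shSC, a ratio of 481 (86 to 19025), and 408 against 2 in shCTSL, a ratio of 120 (33.1 to 997). Col6a1 and Col6a2, chains of beaded filaments, rose by 3.06 (3.68 without shSC Day 0 replicate 2) and 2.15 in shSC and by 3.72 and 3.11 (4.03 without shCTSL Day 0 replicate 1) in shCTSL. The third chain of that filament, Col6a3, reached 0.443 CPM at most and was not tested. Of the chains that can take its place, Col6a4 had a log2 change of -2.30 in shSC and was also called lower in shCTSL, Col6a5 had -3.63 in shSC (-2.89 without shSC Day 4 replicate 1, -4.47 without replicate 2) and -2.17 in shCTSL, and Col6a6 had no call between days. Col7a1, the chain of anchoring fibrils, is given in detail after its values were seen and was at 8.54 and 7.37 CPM at Day 0, 20.7 and 17.4 at Day 2, and 7.65 and 8.18 at Day 4 in shSC, and at 6.49 and 6.53, 24.6 and 25.5, and 8.61 and 8.66 in shCTSL, so that both lines peaked at Day 2.

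Joined over both intervals, 11 genes were called higher and then higher again in both lines, as were 4.17% of all genes tested: Col1a1, Col3a1, Col5a2, Col11a1, Col4a1, Col4a2, Col4a5, Col8a1, Col12a1, Col23a1 and Col26a1. Among these, the second step of Col4a5 was not called in shSC without any 1 of the shSC Day 2 or Day 4 libraries (0.93 to 1.11 against 1.02) or the shCTSL Day 4 libraries (1.02), nor in shCTSL without Day 4 replicate 1 (0.95) or replicate 2 (1.33). That of Col11a1 was not called without any 1 of the shSC Day 2 or Day 4 libraries in shSC (0.90 to 0.98 against 0.94), nor in shCTSL without Day 2 replicate 1 (0.49), Day 4 replicate 1 (0.82) or Day 4 replicate 2 (0.98). In both lines 6 genes were called higher and then lower, beside 3.8% of all genes, namely Col2a1, Col7a1, Col6a2, Col8a2, Col16a1 and Col22a1. Without shSC Day 4 replicate 1 the fall of the last 4 was no longer called in shSC, at -0.82, -0.69, -0.90 and -0.67. The same held for Col8a2 and Col16a1 without shSC Day 2 replicate 1 (-0.91 and -1.13), for Col22a1 without shSC Day 2 replicate 2 (-0.82), for Col6a2 in shCTSL without Day 4 replicate 1 (-1.23) or replicate 2 (-0.98) and for Col16a1 in shCTSL without Day 4 replicate 2 (-1.18). The first step of Col8a2 in shSC, 0.66, was not called without any 1 of the 4 libraries compared (0.57 to 0.74). Another 6 were called higher and then not called in both lines, beside 13.5% of all genes, namely Col1a2, Col24a1, Col6a1, Col9a1, Col20a1 and Col13a1. The second step in shSC gained a call for Col24a1 (0.98) without shSC Day 0 replicate 1 (0.98) or replicate 1 or 2 of shCTSL Day 2 (0.96 and 0.97), for Col9a1 (1.22) without replicate 1 or 2 of shCTSL Day 2 (1.20 and 1.21), and for Col20a1 (0.61) without shSC Day 0 replicate 1 (0.61) or replicate 2 (0.59) or shCTSL Day 2 replicate 2 (0.60). In shCTSL it gained a call for Col24a1 (0.88) and Col13a1 (0.54) without shCTSL Day 2 replicate 2 (1.52 and 0.69). The rise of Col9a1 rests on 1 count at Day 0 in each line and was not called without shSC Day 0 replicate 1 (2.91) or, in shCTSL, without Day 0 replicate 2 (2.76) or Day 2 replicate 1 (2.64). Of the genes with other courses, Col5a3 was called lower at both steps, Col6a4 lower and then not called, and Col6a5 not called and then lower, in both lines, beside 2.23%, 15.2% and 1.78% of all genes, and Col4a3, Col4a4, Col15a1 and Col6a6 had no call in either interval, beside 28%. With 1 library left out, Col4a4 gained a call by Day 2 in shSC (at up to 2.34, from 3 counts at Day 0, without a shSC Day 4 or shCTSL Day 2 library), Col15a1 by Day 2 in shCTSL (1.16 against 1.15, without a shSC Day 4 library) and Col4a3 after Day 2 in shSC (2.06 against 1.40, without shSC Day 4 replicate 2). The calls of the other 10 differed between the lines, as they did for 28.4% of all genes, which is no test of a difference: Col11a2, Col4a6, Col27a1, Col14a1, Col25a1, Col5a1, Col9a2, Col9a3, Col18a1 and Col17a1. The first step of Col27a1 in shSC, 0.71, was not called without shSC Day 0 replicate 1 (0.44), Day 2 replicate 1 (0.65) or Day 2 replicate 2 (0.77), and that of Col14a1, 0.92, without any 1 of the 4 libraries compared (0.77 to 1.16). The second step of Col4a6 in shSC, 1.05, was not called without any 1 of the Day 4 libraries of either line or the shSC Day 2 libraries (0.93 to 1.20). That of Col5a3 in shCTSL, -0.83, was not called without Day 4 replicate 1 (-0.87) or replicate 2 (-0.79), and that of Col9a3, -0.71, was lost without any 1 library of 11 (-0.44 to -0.97). The call of Col9a3 from Day 0 to Day 4 was lost in shSC without Day 0 replicate 1 (0.75) or Day 4 replicate 1 (0.89), and in shCTSL without Day 0 replicate 1 (0.90), Day 0 replicate 2 (0.73) or Day 4 replicate 2 (0.55). Of the exonic bases of Col9a3, 234 are shared with Tcfl5 on the other strand, the largest such overlap among the collagen genes. Counted over the settings that keep the cutoff of 1.5-fold, 29 of the 33 calls from Day 0 to Day 2 in shSC and 30 of the 32 in shCTSL were made in each setting, and 31 of 33 and 31 of 32 from Day 0 to Day 4. Between Day 2 and Day 4 it was 18 of 26 in shSC and 17 of 27 in shCTSL. For Col4a1 and Col22a1 in shCTSL the call was lost in 1 of these settings, the fit of only the libraries compared, which also lost those of Col5a1, Col5a3, Col11a1, Col4a5, Col6a2, Col9a2 and Col9a3.

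Both the sum of the collagen transcripts and their make-up changed with the days. Summed over the 44 genes, CPM were 1034 and 1034 at Day 0, 1998 and 1882 at Day 2, and 2985 and 2841 at Day 4 in shSC, and 865 and 882, 1775 and 2323, and 2886 and 2719 in shCTSL. The sum was higher on each later day in both lines. As a share of the summed CPM per kb of exon, Col18a1 made up 82.3 and 83.4% at Day 0, 52.2 and 51.4% at Day 2, and 23.5 and 23.1% at Day 4 in shSC, and 79.4 and 79.9%, 53.6 and 52%, and 19.8 and 20.3% in shCTSL. Col4a1 and Col4a2 together took 6.96 and 5.9%, 27.5 and 28.7%, and 47.6 and 46.8% on this scale in shSC, and 9.53 and 9.86%, 24 and 29.2%, and 52.7 and 52.1% in shCTSL. Col3a1 took 0.143% in both shSC Day 2 libraries and 9.48 and 9.78% at Day 4, and in shCTSL 0.108 and 0.0802%, then 10.2 and 10%. By mean CPM per kb the leading gene was Col18a1 at Day 0 and Day 2 (124 and 148 in shSC, 100 and 160 in shCTSL) and Col4a1 at Day 4 (123 and 128). At Day 0 the next in shSC was Col4a1 at 7.03, and at Day 4 it was Col18a1 at 96.1, followed by Col4a2 at 71.9 and Col3a1 at 39.7. In shCTSL Day 4, Col4a2 at 80.9 and Col18a1 at 80.2 were within their spread of each other.

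**Figure D3:**
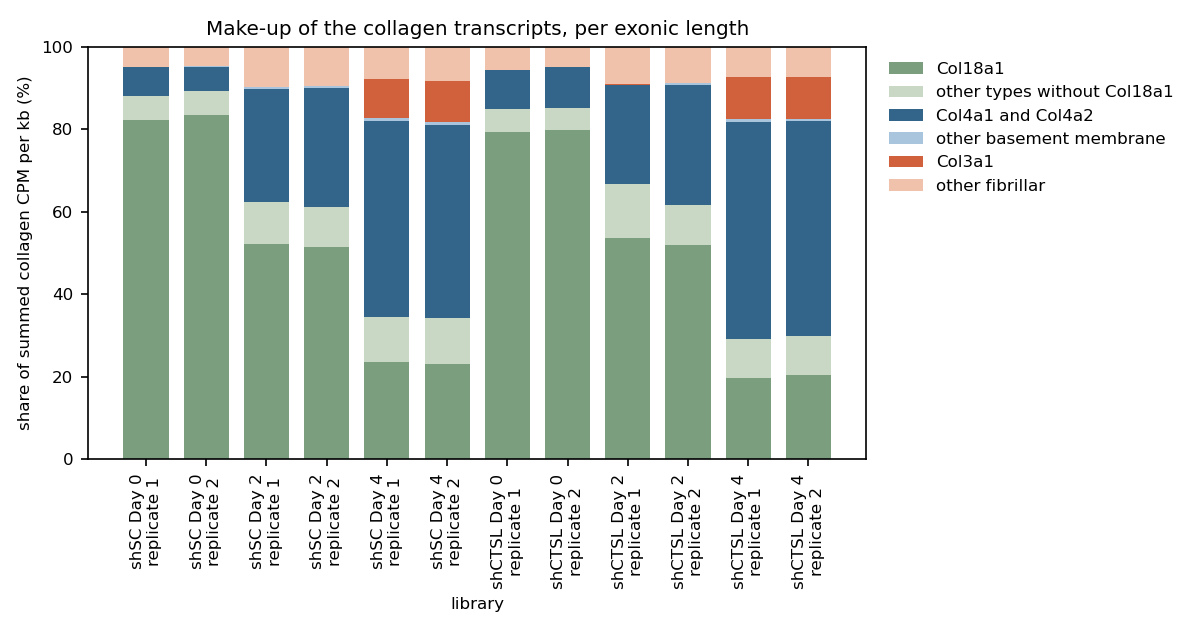
Share of the summed collagen CPM per kb of exon, in percent, for each of the 12 libraries, with bars split into Col18a1, the remaining other types, Col4a1 with Col4a2, the remaining basement membrane genes, Col3a1, and the remaining fibrillar genes. Col18a1 falls from 79.4 to 83.4% at Day 0 to 19.8 to 23.5% at Day 4, and Col4a1 with Col4a2 take 46.8 to 52.7% at Day 4.

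Col3a1 and Col25a1 had the largest log2 changes from Day 2 to Day 4 of the collagen genes tested in both lines, and the 250 bases before their starts are printed for this reason. RefSeq promoter entries of GRCm38.p6 were found for 35 of the 44 genes, with 38 windows, and not for Col5a2, Col4a3, Col9a3, Col26a1, Col12a1, Col1a1, Col14a1, Col22a1 and Col2a1. The motifs searched on both strands were TATAAA of the TATA box, CCAAT of the CCAAT box, GGGCGG bound by Sp proteins, AGGTCA bound by nuclear receptors, and the octamer ATGCAAAT, which was added after the sequences had been read. Capitals mark every match among these, also as reverse complement (ATTTGCAT for ATGCAAAT, CCGCCC for GGGCGG). The Col3a1 window is chr1:45311288-45311537 and the Col25a1 window chr3:130180595-130180844, both on the plus strand.
Col3a1: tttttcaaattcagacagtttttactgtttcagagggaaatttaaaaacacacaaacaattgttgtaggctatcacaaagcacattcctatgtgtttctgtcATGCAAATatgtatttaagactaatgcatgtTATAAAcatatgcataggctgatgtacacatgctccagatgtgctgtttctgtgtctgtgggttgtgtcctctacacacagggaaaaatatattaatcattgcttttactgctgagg
Col25a1: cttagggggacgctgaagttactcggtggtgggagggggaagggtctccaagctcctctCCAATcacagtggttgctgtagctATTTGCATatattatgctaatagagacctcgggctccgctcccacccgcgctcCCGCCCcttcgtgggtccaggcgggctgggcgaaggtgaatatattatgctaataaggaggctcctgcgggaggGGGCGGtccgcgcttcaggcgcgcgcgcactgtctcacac
The sequences differ in base composition, with 35.2% G and C in Col3a1 and 60.4% in Col25a1, against medians of 59% over the collagen windows and 52.4% over all windows. Col3a1 holds ATGCAAAT from 148 and TATAAA from 117 bases before the start. Col25a1 holds CCAAT from 191, ATTTGCAT from 167, CCGCCC from 114 and GGGCGG from 40 bases before it. Of the 38 collagen windows, 2 hold ATGCAAAT, those of Col3a1 and Col25a1, and so do 1.6% of the 32851 windows of all genes. Since the octamer was taken from these 2 sequences, its presence in both was fixed by the choice. The comparison with all windows is therefore no test of it. TATAAA is in 5 collagen windows and 12.4% of all, CCAAT in 13 and 33.8%, GGGCGG in 22 and 32.7%, and AGGTCA in 8 and 14%. A match describes letters and no binding was measured here.

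Whether depletion of Ctsl goes with a different collagen programme was asked by comparing the lines on each day. No collagen gene was called with edgeR: 0 at Day 0, where 6 genes in all were called (0.0386%), 0 at Day 2, where 10 were (0.0644%), and 0 at Day 4, where 2 were (0.0129%). At an unadjusted p under 0.05 there were 4 collagen genes at Day 0, 6 at Day 2 and 8 at Day 4, beside 7.26%, 19.4% and 12.2% of all genes. DESeq2 called 0 collagen genes on each day, beside 0.309%, 0.805% and 0.85% of all genes. The difference between the lines in the change between days, the interaction, likewise called 0 collagen genes with edgeR for each interval. Of all genes it called 0% from Day 0 to Day 2, 0% from Day 2 to Day 4 and 0.00644% from Day 0 to Day 4. At an unadjusted p under 0.05 the interactions gave 5, 7 and 6 collagen genes in that order, beside 11%, 4.85% and 6.71% of all genes, and DESeq2 called 0 in each, beside 0.155%, 0.0708% and 0.18%. The median log2 difference over the 44 genes without the filter was -0.31 at Day 0, 0.00 at Day 2 and -0.17 at Day 4, against 0.00 over all genes on each day. Of the 40 genes tested, the shCTSL libraries lay above both shSC libraries for 4 and below both for 13 at Day 0, beside 22.7% and 28.6% of all genes, for 14 and 10 at Day 2, beside 22.7% in each direction, and for 10 and 18 at Day 4, beside 30% and 31.5%. A call within 1 line and not in the other was therefore not shown to differ between the lines for any collagen gene.

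The spread of the shCTSL Day 2 pair enters each of these tests, since the fit pools it over groups. With both of its libraries left out, an alternative chosen after seeing the data, 1 collagen gene was called between the lines at Day 0, beside 1.37% of all genes (212 of 15421), 3 at Day 4, beside 5.89% (909), and 1 in the interaction from Day 0 to Day 4, beside 1.67% (258). The genes called were named after these values were seen. At Day 0 and in the interaction it was Col13a1, a membrane-spanning collagen found at cell contacts and nerve-muscle junctions. It measured 6.56 and 6.75 CPM at Day 0, 14.5 and 14.8 at Day 2, and 11 and 15 at Day 4 in shSC, and 4.25 and 3.37, 11 and 13.4, and 18.6 and 17.1 in shCTSL. The shCTSL libraries were below those of shSC at Day 0 and Day 2 and above them at Day 4. The Day 0 log2 difference was -0.79 ± 0.21 (adjusted p 0.356) with all libraries and -0.77 ± 0.21 (adjusted p 0.0483) without the pair, and the interaction was 1.25 (adjusted p 0.489) with all libraries and 1.25 ± 0.25 (adjusted p 0.0204) without it.

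At Day 4 the 3 genes were Col25a1, Col23a1 and Col12a1. For Col25a1 the log2 difference was -0.69 (adjusted p 0.325) with all libraries and -0.68 (adjusted p 0.00514) without the pair, by edgeR. Col23a1 measured 17.6 and 17.4 CPM at Day 4 in shSC and 12.8 and 9.49 in shCTSL, with a log2 difference of -0.65 (adjusted p 0.276) and, without the pair, -0.64 (adjusted p 0.00742). Col12a1 measured 72.7 and 46.5 CPM in shSC and 42.3 and 37.2 in shCTSL, with -0.59 (adjusted p 0.438) and, without the pair, -0.59 (adjusted p 0.00953). All 3 genes were lower in either shCTSL Day 4 library than in any shSC Day 4 library. Since each group has its own mean in the fit, the size of a Day 4 difference comes mainly from the Day 4 libraries. It was therefore bound to be nearly the same with and without the pair, and is no check on the calls.

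Leaving out 1 library of the pair also brought calls. At Day 0 Col13a1 was called without replicate 1 (-0.77) and without replicate 2 (-0.79), beside 1.33% and 1.35% of all genes, and so was its interaction from Day 0 to Day 4 (1.25 and 1.26), beside 1.63% and 1.69%. At Day 4 there were 4 collagen calls in both cases, beside 5.82% and 5.83%, namely Col25a1, Col23a1, Col12a1 and Col27a1, a fibrillar gene at -0.59 and -0.60. At Day 2 itself the outcome depended on which library was kept. Without replicate 1 edgeR called 0 collagen genes, beside 0.604% of all genes (96 of 15899), and without replicate 2 it called 6, beside 31.6% (5012 of 15837). These were Col9a3 at 1.03, Col16a1 at 0.80, Col12a1 at -0.83, Col4a5 at -1.29 and Col14a1 at -1.24 on the log2 scale, and Col11a1, lower in shCTSL. In the interaction from Day 0 to Day 2 it was 0, beside 1.89%, without replicate 1 and 5, beside 26%, without replicate 2: Col11a1 at -1.10, Col4a1 at -0.78, Col4a2 at -0.61, Col9a2 at 0.76 and Col7a1 at 0.64. In that from Day 2 to Day 4 it was 1, Col12a1 at -0.88, beside 3.57%, without replicate 1, and 4, beside 14.7%, without replicate 2: Col27a1 at -0.89, Col26a1 at -0.68, Col13a1 at 0.88 and Col1a1 at 0.63. No collagen gene was called at Day 2 or in the interactions with Day 2 under both of these omissions.

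The genes that make and handle collagen were taken as a list of 46, with 43 tested: enzymes that hydroxylate and glycosylate the chains, chaperones, enzymes that trim and crosslink them, receptors and proteases. From Day 0 to Day 4, 25 were called higher and 4 lower in shSC, beside 32.1% and 28.7% of all genes, and 26 and 3 in shCTSL, beside 32.3% and 27.6%, with median log2 changes of 1.43 and 1.15 against 0.03 and 0.06 over all genes tested. By Day 2 the counts were 23 and 5 in shSC, beside 29.3% and 25.3%, and 25 and 4 in shCTSL, beside 30.9% and 24.6%. After Day 2 they were 16 and 5 in shSC, beside 11.4% and 12.4%, and 16 and 6 in shCTSL, beside 11% and 12.4%. None was called between the lines, beside 0.0386%, 0.0644% and 0.0129% of all genes at Day 0, Day 2 and Day 4. The interaction from Day 0 to Day 4 also called none of them, beside 0.00644%. With so few calls among all genes, these counts say little about the list. Serpinh1, the chaperone that binds the folded triple helix, measured 47.7 and 49.7 CPM at Day 0, 543 and 515 at Day 2, and 639 and 630 at Day 4 in shSC, and 54.2 and 52.1, 636 and 632, and 732 and 777 in shCTSL. It rose mainly by Day 2 in both lines, with a log2 change of 3.70 ± 0.10 from Day 0 to Day 4 in shSC and 3.83 ± 0.10 in shCTSL. Mrc2, the receptor that takes up collagen fragments, also rose by Day 2 but was lower in all Day 4 libraries of a line than in its Day 2 libraries, with no call, at 5.72 and 6.01, 256 and 223, and 219 and 215 CPM in shSC and 7.61 and 7.48, 327 and 337, and 244 and 236 in shCTSL.

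The hydroxylating and trimming enzymes did not move together. P4ha1, a catalytic chain of prolyl 4-hydroxylase, changed by 1.54 and 1.34 from Day 0 to Day 4 in shSC and shCTSL, while Plod2, which hydroxylates lysines for crosslinks, changed by 0.51 and 0.54 and was not called. P4ha3, another chain of the first enzyme, measured 0.305 and 0.31 CPM at Day 0, 6.17 and 6.22 at Day 2, and 28.5 and 29.4 at Day 4 in shSC, and 0.149 and 0.105, 5.11 and 9.41, and 35.4 and 35.1 in shCTSL. P3h2, a prolyl 3-hydroxylase of type IV chains, measured 0.229 and 0.124, 2.42 and 2.5, and 14.2 and 11.2 CPM in shSC, and 0.373 and 0.211, 0.923 and 3.19, and 9.91 and 7.97 in shCTSL. Both rose at each step in both lines without overlap between days. Itga2, a chain of a collagen receptor, was at 0.0746 to 0.124 CPM in the Day 0 libraries and at 3.79 to 13.3 CPM at Day 4. Of the 7 trimming genes tested, 4 were called higher from Day 0 to Day 4 in both lines, namely Bmp1, Adamts2, Adamts3 and Tll1, and 3 lower, beside 32.1% and 28.7% of all genes in shSC and 32.3% and 27.6% in shCTSL. Bmp1, a proteinase of procollagens, had a mean of 7.15 CPM at Day 0 and 153 at Day 4 in shSC, and 9.23 and 151 in shCTSL. Pcolce and Pcolce2, which speed the trimming of fibrillar procollagens, went down. Pcolce measured 185 and 191, 11.7 and 10.3, and 40 and 39.3 CPM in shSC, and 213 and 197, 15.2 and 11.7, and 51.5 and 52.4 in shCTSL. Pcolce2 measured 72.1 and 73.1, 4.75 and 5.12, and 1.41 and 2.01 in shSC, and 63.3 and 60.5, 7.45 and 4.26, and 1.89 and 2.61 in shCTSL. The first was lowest at Day 2 and the second at Day 4, and Adamts14, which removes amino-terminal propeptides, had log2 changes of -2.91 and -3.14 from Day 0 to Day 4. Lox, the crosslinking oxidase, was at 0.105 to 1.36 CPM, with its highest values at Day 2.

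Transcripts that mark cell types which make collagen were read from fixed lists, and their part in the collagen changes was not tested. Of all genes, 32.1% were called higher and 28.7% lower from Day 0 to Day 4 in shSC, and 32.3% and 27.6% in shCTSL, which are the shares to set beside the counts of each list. Of 8 primitive and parietal endoderm genes, 8 were called higher and 0 lower from Day 0 to Day 4 in shSC and 7 and 0 in shCTSL. Their summed CPM were 233 and 215, 602 and 601, and 895 and 837 over the days in shSC, and 201 and 226, 478 and 684, and 866 and 786 in shCTSL. Lama1, a laminin chain that stem cells also express, was the most abundant in each library, and no gene of this list was at 0. Of 8 visceral endoderm genes, 7 in shSC and 8 in shCTSL were called higher and 0 lower, with sums of 6.71 and 6.07, 94.9 and 108, and 434 and 322 CPM in shSC, and 4.92 and 5.79, 74.6 and 100, and 419 and 354 in shCTSL. Cubn led from Day 2 on, except in shCTSL Day 4 replicate 2, where Ttr did, and at Day 0 Ttr was at 0 in all libraries, with Afp in all but shCTSL replicate 2, where Apoa1 was at 0. The visceral endoderm sum rose on each later day in both lines, and so did that of primitive and parietal endoderm.

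Of 8 mesenchyme and fibroblast genes, 6 were called higher and 1 lower in both lines from Day 0 to Day 4. Their sums were 18.1 and 17.6, 89.9 and 89.9, and 105 and 134 CPM in shSC, and 16.3 and 14.5, 119 and 103, and 129 and 125 in shCTSL. The genes of this list moved apart after Day 2, when Twist1, Twist2, Prrx1 and Postn were called higher by Day 4 in both lines, at 2.31, 2.54, 1.85 and 1.89 on the log2 scale in shSC and 2.20, 3.31, 1.44 and 2.74 in shCTSL, also without any single library. Prrx2 was called lower, at -0.97 in shSC (-0.82 and not called without shSC Day 4 replicate 1) and -1.28 in shCTSL. Pdgfrb, at -0.46 and -0.51, was not called, except without shCTSL Day 2 replicate 1 in shCTSL (-0.69). Twist1 was the most abundant at Day 4 in each library. Fap was at 0 in 7 libraries and at 0.0426 to 0.217 CPM in the others, and at Day 0 Prrx1, Twist2 or Postn was at 0 in some libraries. Of 7 cartilage genes, 2 were called higher and 2 lower in shSC, and 2 and 1 in shCTSL, with sums of 11.1 and 9.17, 38.9 and 40.6, and 90.5 and 95.6 CPM in shSC, and 9.47 and 8.01, 28.7 and 29.5, and 70.6 and 68.9 in shCTSL. Sox9 was the most abundant of these after Day 0, while Acan, which defines cartilage matrix, was at 2.02 to 5.56 CPM in all libraries, with its lowest values at Day 4. From Day 0 to Day 4, Sox5 and Sox9 were called higher in both lines, Matn1 lower in both, and Matn3 lower in shSC. After Day 2, Sox5 and Sox9 were called higher and Matn1, Acan and Comp lower in both lines. Matn3 was also called lower in shSC. Sox5 or Chad was at 0 in some Day 0 libraries.

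Of 8 endothelial genes, 6 were called higher in both lines and 2 lower in shSC and 1 in shCTSL. Their sums were 107 and 112, 197 and 212, and 345 and 326 CPM in shSC, and 83 and 81.8, 84.9 and 117, and 308 and 252 in shCTSL, with Pecam1 leading at Day 0 and Kdr later and Emcn at 0 at Day 0. Of 8 neural genes, 5 were called higher and 1 lower in both lines, with sums of 212 and 227, 155 and 156, and 109 and 134 CPM in shSC, and 200 and 199, 185 and 170, and 88.4 and 95.4 in shCTSL. Tubb3 led at Day 0, Pax6 at Day 2 and Sox1 at Day 4, and Dcx, Neurog1 or Neurog2 was at 0 in some libraries of Day 0 and Day 2. The endothelial sum rose over the days, in shCTSL mostly after Day 2. The genes called lower from Day 0 to Day 4 were Pecam1 in both lines and Vwf in shSC. The fall of the neural sum from Day 0 to Day 2 lies in Tubb3, since without it the sum was 49.4 and 50.5, 142 and 144, and 99.7 and 121 CPM in shSC, and 53.1 and 50, 166 and 156, and 78.4 and 84.6 in shCTSL. Without Tubb3 the sum thus rose by Day 2 and fell after it in both lines. From Day 2 to Day 4, Pax6 and Sox3 were called lower and Sox1 and Neurog2 higher in both lines. Neurog1 was also called higher in shSC, and Tubb3 lower in shCTSL. All 6 pluripotency genes were called lower from Day 0 to Day 4 in both lines.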

How the data were processed

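Per the labels and the submitters' processing notes, the deposited values are counts of reads per gene, made by the authors from reads checked with FastQC 0.11.2, aligned to mm9 with STAR 2.3.0e, filtered with SAMtools 0.1.19 and counted with featureCounts 1.6.2; the notes also name DESeq2 1.16.1 and bedtools 2.27.1. The libraries titled scr and labelled WT were taken as shSC.

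The fit used edgeR 4.0.16 under R 4.3.3 and TMM normalization, with a mean for each of the 6 groups (6 residual degrees of freedom) and a minimum count of 10 in filterByExpr, which kept 15532 of 24495 genes. The fit was also run on simulated data, but the outcome is not given here and no result above rests on it. Comparisons were those between days in each line, between lines on each day, and their interactions. Levels per length use the union of exons in the GENCODE M1 annotation of mm9, where 20561 genes were found by symbol and 1646 by an older name. A pseudocount of 0.5 entered the spread between replicates alone. Python 3.11.15, numpy 2.4.6, pandas 2.3.3, scipy 1.17.1 and matplotlib 3.10.9 made the tables, intervals and figures. A ratio with 1 to 3 counts in a group has a 95% exact counting interval.

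Members and lists were chosen with earlier results of these data known. Collagen genes given in every library were, in each class, the 4 with the highest group mean per exonic length and chains encoded next to them, with Col1a2, Col5a3, Col7a1 and Col13a1 added after their values were seen. From the list that makes and handles collagen they were the 3 largest changes from Day 0 to Day 4 in each direction and line, with Serpinh1, P4ha1, Plod2 and Lox. Marker lists cover pluripotent cells, primitive and parietal endoderm, visceral endoderm, mesenchyme and fibroblast, endothelial, cartilage and neural cells.

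Alternatives were a fit of only the libraries compared, a filter of 1 CPM in 2 libraries or none (22689 genes), DESeq2 1.42.0, RLE normalization, a log2 fold change of at least 1.5, a replicate block, and each library left out in turn. The omission of both shCTSL Day 2 libraries and offsets for exonic length were chosen after seeing the data.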

Additional observations from a re-analysis of the deposited data

How the results depend on the processing

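Each count of collagen genes called was recomputed under the alternatives, and 366 values stayed within 1.5 times the count first given while 23 did not. Of the values for single genes that were followed, which leave out many genes not called, 5753 kept their direction and their side of the threshold, 39 gained a call, 110 lost it and 4 changed sign.

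With a log2 fold change of at least 1.5, 1 collagen gene was called lower from Day 0 to Day 2 in shSC and 0 in shCTSL, beside 7.07% and 7.13% of all genes, and from Day 2 to Day 4 there were 10 higher and 3 lower in shSC, beside 4.8% and 4.61%, and 9 higher and 5 lower in shCTSL, beside 4.68% and 3.77%, as a stricter cutoff must lower them. With only the libraries compared, 7 were called lower from Day 2 to Day 4 in shCTSL, beside 3.69% of all genes, 1 between the lines at Day 0, beside 2.04%, 2 at Day 4, beside 4.83%, and 1 in the interaction from Day 0 to Day 4, beside 0.988%. With both shCTSL Day 2 libraries left out, chosen after seeing the data, these last 3 counts were 1, 3 and 1, beside 1.37%, 5.89% and 1.67%. The cause was not tested.

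Leaving out each library in turn, the calls between the lines ranged from 0 to 1 at Day 0, 0 to 6 at Day 2 and 0 to 4 at Day 4, and in the interactions from 0 to 5 (Day 0 to Day 2), 0 to 4 (Day 2 to Day 4) and 0 to 1 (Day 0 to Day 4). Each value above 0 came from leaving out a shCTSL Day 2 library. A group left with 1 library is assumed to vary like the others. With a replicate block the calls between the lines and in the interactions stayed at 0.

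The followed values that changed sign are the positive ones below and were not called. For Col12a1, interaction: line difference in the Day 4 against Day 2 change had a range of -0.88 to 0.23 with 1 library left out. For Col12a1, shCTSL against shSC at Day 2 ran from -0.83 to 0.29, and was 0.17 with exonic length offsets. For Col4a1, interaction: line difference in the Day 2 against Day 0 change had a range of -0.78 to 0.02. Changes between days that were not called also changed sign in some settings, such as Col7a1 from Day 0 to Day 4 in shSC (-0.36 to 0.10) and Col4a4 from Day 2 to Day 4 in shSC (-1.89 to 1.10). No change between days that was called did so. The cause was not tested.

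Whether replicates of the same number belong together was looked at by correlating the replicate differences of pairs of groups across genes, which gave -0.465 to 0.257. Both extremes involve the shCTSL Day 2 pair, whose difference followed transcript length. The check therefore cannot decide whether replicates were paired, and the labels do not say. With 2 libraries a group, SDs are imprecise. At Day 0, 1 count in a library is 0.062 CPM or more, and genes with a few counts there have fold changes that 1 library can move.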
